A study of Mus musculus with 6 samples.

Results

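The keratin and keratin-associated genes of the mouse were followed through 1 map of chromatin states from hematopoietic stem cells (HSCs), the bone marrow cells that give rise to blood. The RefSeq genes of GRCm38.p6 (mm10) supplied the members, as protein-coding genes whose symbol opens with Krt or Krtap followed by a digit. The rule found 109 genes of the 21779 protein-coding genes in the map: 28 type I keratins, 25 type II keratins and 56 keratin-associated genes.

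The study asked how HIRA, a chaperone that deposits the histone variant H3.3 into chromatin, acts in hematopoiesis. Its 6 libraries were 2 HIRA KO H3.3 ChIP, 1 HIRA KO input, 2 WT H3.3 ChIP and 1 WT input, each made from HSCs sorted from the bone marrow of C57BL/6 mice. Conditional Hira was deleted in the hematopoietic system by poly(I:C), given in 2 doses of 20 ug, and the sort followed on day 7 counted from the first. The labels give the same doses and day of sort for the WT groups, so the WT samples were poly(I:C)-treated too. The driver of the deletion is not given in the sources used here. For the ChIP, chromatin was fragmented by MNase (micrococcal nuclease), and H3.3 was pulled down by a monoclonal antibody raised in rat. The map used here assigns each bin of 200 bp to 1 of 18 numbered states and belongs to the WT H3.3 ChIP samples going by its file name alone. It has no replicate and no knockout counterpart, so knockout chromatin was not analysed here, and the values below carry no replicate error and no test.

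Keratins are intermediate filament proteins of epithelia. A type I keratin pairs with a type II keratin in every filament, and the pair an epithelial cell makes depends on its tissue, layer and state of repair. Keratin-associated proteins are small proteins, rich in cysteine or in glycine and tyrosine, that pack between keratin filaments in the hair shaft. Both families lie in dense genomic clusters of similar genes.

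The state numbers have no deposited names, so they are described by where they lay. States 3 to 6 covered 1.13% of the mapped bases and held the transcription start of 51.6% of the 17492 protein-coding genes with a promoter entry. State 18 covered 55.0% of the bases, state 17 covered 15.2% and state 11 covered 13%. State 11, together with the rarer states 9 and 10, made up 13.5% of the map, and states 14 and 15 made up 5.48%. Known HSC genes were read in the same map, with 1 listed gene left out. The 9 shown were Gata2, Mecom, Hlf, Procr, Kit, Slamf1, Runx1, Meis1 and Tal1. Each of the 9 held a state from 3 to 6 within 2 kb of its record, against 58.3% of all protein-coding genes. Their records were longer, with a median of 54.4 kb against 17.2 kb. The call is also common among all genes, so it cannot check the labelled cell type.

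Each gene was read over its record with 2 kb on each side, called its window. Windows with any bin of states 3 to 6 numbered 7 of 109 among the keratin and keratin-associated genes (6.42%), against 58.3% of all protein-coding genes. Windows with any bin of states 9 to 11 numbered 80 of 109 (73.4%), against 39.2% of all protein-coding genes. State 11 took the most bases of the window in 64 members (58.7%), against 10.9% of all protein-coding genes. The median share of the window in state 11 was 57.8% for the members and 0% for all protein-coding genes. In 29 members (26.6%) the window lay wholly in states 9 to 11, against 2.26% of all protein-coding genes, and in 25 of the 29 it was state 11 from edge to edge.

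State 18, the state of largest extent in the map, gave no single direction. The members' windows had 31.7% of bases in state 18, against 37.4% for all protein-coding genes, but the median share per window was 23.1% in members and 7.18% in all protein-coding genes. The window was wholly state 18 in 9 of 109 members (8.26%), against 5.94% of all protein-coding genes. State 17 covered 6.01% of the members' window bases, against 25.3% in all protein-coding genes. A state 7 or 8 bin occurred in 2 members, Krt7 and Krt18, while 52.7% of all protein-coding genes had one.

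Record length differed between members and other genes, with a median of 1.65 kb for the members and 17.2 kb for all protein-coding genes, and a longer window has more room for any state. The families happened to separate at 2 kb: the 53 keratins had records from 2.81 to 50.6 kb and the 56 keratin-associated genes from 0.304 to 1.89 kb. Among keratins, 7 of 53 (13.2%) held states 3 to 6, against 61.6% of the 14343 genes with records over 2 kb and up to 50.6 kb. States 9 to 11 occurred in 44 of the 53 (83%), against 31.9% of those genes, and state 11 was largest in 37 (69.8%), against 10.6%. The window of 1 keratin, Krt81, was wholly state 18 (1.89%), against 4.94%, and state 18 covered 27.5% of the keratins' window bases, against 22.9%.

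Keratin-associated genes were set beside genes of their own length. None of the 56 held states 3 to 6, against 14% of the 2557 genes with records of at most 2 kb. States 9 to 11 occurred in 36 (64.3%), against 41.8%, and state 11 was largest in 27 (48.2%), against 23.9%. Both shares rested on the genes of chromosome 11, with states 9 to 11 in 23 of 23 and state 11 largest in 21 (91.3%). On chromosome 16 the counts were 9 of 24 (37.5%) and 3 (12.5%), below the shares of the short genes. On chromosome 7 they were 2 of 5 and 2, and on chromosome 10 they were 2 of 3 and 1. Windows wholly in state 18 numbered 8 (14.3%), against 22.8%, and state 18 covered 41.9% of window bases, against 47.3%. The share wholly in state 18 was thus above that of all protein-coding genes for the members together and below that of genes of like length for each family. For keratin-associated genes the lower share rested mainly on chromosome 11, with 0 of 23. The count was 5 of 24 (20.8%) on chromosome 16, 2 of 5 on chromosome 7 and 1 of 3 on chromosome 10.

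**Figure D1:**
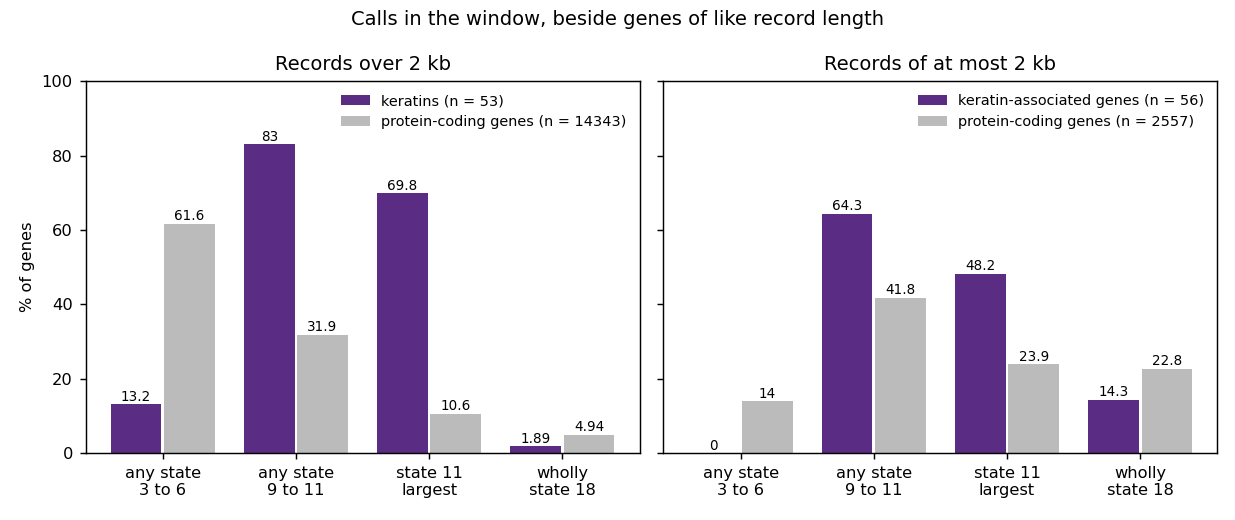
Percent of genes (vertical axis) with each call in the window, for 53 keratins beside 14343 genes with records over 2 kb and up to the longest member, and for 56 keratin-associated genes beside 2557 genes with records of at most 2 kb. Keratins stood at 69.8% for state 11 as the largest state, against 10.6%, and no keratin-associated gene held states 3 to 6.

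Seen by gene start, 87 of the 109 members had an entry in the RefSeq promoter table, which gives strand and start. Members with no entry were Krt222, Krt33a, Krt35, Krt15, Krt19, Krt16, Krt17, Krt80, Krt87, Krt88, Krt81, Krt86, Krt83, Krt6b, Krt6a, Krt1, Krt4, Krtap1-3, Krtap7-1, Krtap9-1, Krtap10-10 and Krtap12-1. Starts in states 3 to 6 numbered 2 (2.3%), those of Krt18 in state 3 and of Krt8 in state 6, beside 51.6% of all genes with an entry. Starts in states 9 to 11 numbered 51 (58.6%), against 18.9%, and each of the 51 lay in state 11. States 9 and 10 held no member's start, while they held 8.87% of starts among all genes with an entry. State 18 held the starts of 20 members (23.0%), against 20.3%. States 14 and 15 held 11 starts (12.6%), against 2.87%, each a keratin-associated gene of chromosome 16. The remaining starts, those of Krt7, Krtap5-2 and Krtap28-13, lay in state 16 or 17.

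The bases before the start are shown for 9 members, with at least 1 from each class of start. Each run below is the 200 bases just upstream of the start on the gene's strand, 5′ to 3′, from RefSeq on GRCm38.p6 (mm10), with CpG dinucleotides and the TATA box hexamer TATAAA in capitals. Krt18 (chr15:102028016-102028215, plus strand) and Krt8 (chr15:102004343-102004542, minus strand) start in states 3 and 6. Krt5 (chr15:101712906-101713105), Krt10 (chr11:99389365-99389564), Krt31 (chr11:100050552-100050751) and Krtap4-2 (chr11:99635085-99635284), each on the minus strand, start in state 11. Krtap22-2 (chr16:89010760-89010959, minus strand) starts in state 15, Krt76 (chr15:101892921-101893120, minus strand) in state 18 and Krt7 (chr15:101412203-101412402, plus strand) in state 17.
Krt18: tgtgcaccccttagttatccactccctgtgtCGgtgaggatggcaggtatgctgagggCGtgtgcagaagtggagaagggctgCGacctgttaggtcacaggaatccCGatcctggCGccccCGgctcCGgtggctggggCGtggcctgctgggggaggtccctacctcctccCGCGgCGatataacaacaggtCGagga
Krt8: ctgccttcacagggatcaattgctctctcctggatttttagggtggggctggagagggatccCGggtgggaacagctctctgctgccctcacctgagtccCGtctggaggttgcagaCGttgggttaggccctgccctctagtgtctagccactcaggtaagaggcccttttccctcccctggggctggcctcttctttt
Krt5: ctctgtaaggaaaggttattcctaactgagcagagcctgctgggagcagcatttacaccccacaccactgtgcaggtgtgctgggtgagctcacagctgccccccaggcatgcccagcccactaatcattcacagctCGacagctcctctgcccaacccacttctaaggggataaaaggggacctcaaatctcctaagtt
Krt10: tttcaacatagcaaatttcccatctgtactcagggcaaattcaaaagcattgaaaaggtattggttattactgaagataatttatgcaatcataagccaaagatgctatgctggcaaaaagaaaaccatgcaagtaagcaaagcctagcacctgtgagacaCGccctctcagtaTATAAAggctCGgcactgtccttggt
Krt31: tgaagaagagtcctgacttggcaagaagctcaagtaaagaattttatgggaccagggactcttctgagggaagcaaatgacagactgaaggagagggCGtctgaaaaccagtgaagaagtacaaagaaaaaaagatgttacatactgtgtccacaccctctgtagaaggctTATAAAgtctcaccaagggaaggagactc
Krtap4-2: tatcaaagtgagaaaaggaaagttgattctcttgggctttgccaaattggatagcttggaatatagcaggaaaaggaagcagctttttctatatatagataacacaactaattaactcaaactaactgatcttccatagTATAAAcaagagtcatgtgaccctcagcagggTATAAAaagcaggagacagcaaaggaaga
Krtap22-2: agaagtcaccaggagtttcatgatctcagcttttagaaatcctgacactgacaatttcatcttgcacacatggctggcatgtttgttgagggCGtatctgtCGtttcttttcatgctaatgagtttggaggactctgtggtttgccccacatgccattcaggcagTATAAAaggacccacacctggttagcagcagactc
Krt76: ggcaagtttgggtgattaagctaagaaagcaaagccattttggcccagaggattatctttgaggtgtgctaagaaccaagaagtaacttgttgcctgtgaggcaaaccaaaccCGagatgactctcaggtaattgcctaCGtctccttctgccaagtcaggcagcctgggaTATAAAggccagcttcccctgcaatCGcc
Krt7: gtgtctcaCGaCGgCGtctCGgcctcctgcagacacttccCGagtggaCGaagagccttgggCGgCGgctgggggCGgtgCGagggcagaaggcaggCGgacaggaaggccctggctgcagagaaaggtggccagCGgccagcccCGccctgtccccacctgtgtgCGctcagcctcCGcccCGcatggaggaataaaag

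The Krt18 run carries 12 CpG dinucleotides and no TATAAA, and the Krt8 run 3 and none. The Krt7 run has 16 CpG dinucleotides and the Krt5 run has 1, and both lack TATAAA. In Krt10 the hexamer begins 26 bases before the start, in Krt31, Krtap4-2 and Krt76 29 bases before it and in Krtap22-2 35 bases before it. Krtap4-2 holds the hexamer in 2 places and has no CpG at all in these 200 bases.

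All members with an entry were next set beside all protein-coding genes with one. Over the full 300 bases of an entry (250 before the start and 50 after it), the median number of CpG dinucleotides was 3 in the members, with a range from 0 to 21, and 13 in all protein-coding genes. Median GC content was 44.3% in members and 56.3% in all genes, and the ratio of observed to expected CpG was 0.221 in members and 0.565 in all genes. Above the median of all genes stood 2 members, Krt7 with 21 CpG dinucleotides and Krt18 with 17. TATAAA on either strand occurred in 61 of 87 members (70.1%), against 13.3% of all genes with an entry. On the gene's own strand, with its first base 20 to 40 bases before the start, it occurred in 44 members (50.6%), against 2.84%. Krt8 held TATAAA in its full entry, though not in the run of bases shown above. By family, TATAAA on either strand occurred in 42 of 51 keratin-associated genes (82.4%), 13 of 21 type I keratins (61.9%) and 6 of 15 type II keratins. The GC box core GGGCGG, searched on both strands, occurred in 2 members, Krt7 and Krt75 (2.3%), against 45.9% of all genes with an entry. TATAAA and GGGCGG cannot overlap each other, each GGGCGG also holds a CpG, and a match is a run of letters, not a bound site.

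Members that start in state 11 were also set beside the 1773 genes of the whole set that start there. The median number of CpG dinucleotides was 3 in the 51 members and 4 in those genes. TATAAA occurred in 70.6% of the 51 members and in 23.8% of those genes. Thus the median CpG count of the members lay near that of all genes starting in state 11, which include the members. The share with TATAAA lay above theirs. Median GC content was lower in the members (44.7% against 50.7%), as was the ratio of observed to expected CpG (0.179 against 0.255). GGGCGG occurred in 1.96% of the members and in 24.7% of those genes. Within the members, TATAAA occurred in 13 of the 20 genes starting in state 18 (65.0%), against 25.1% of the 3400 genes starting there. For state 15 it occurred in 9 of the 10 members starting there, against 26.7% of the 386 genes.

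**Figure D2:**
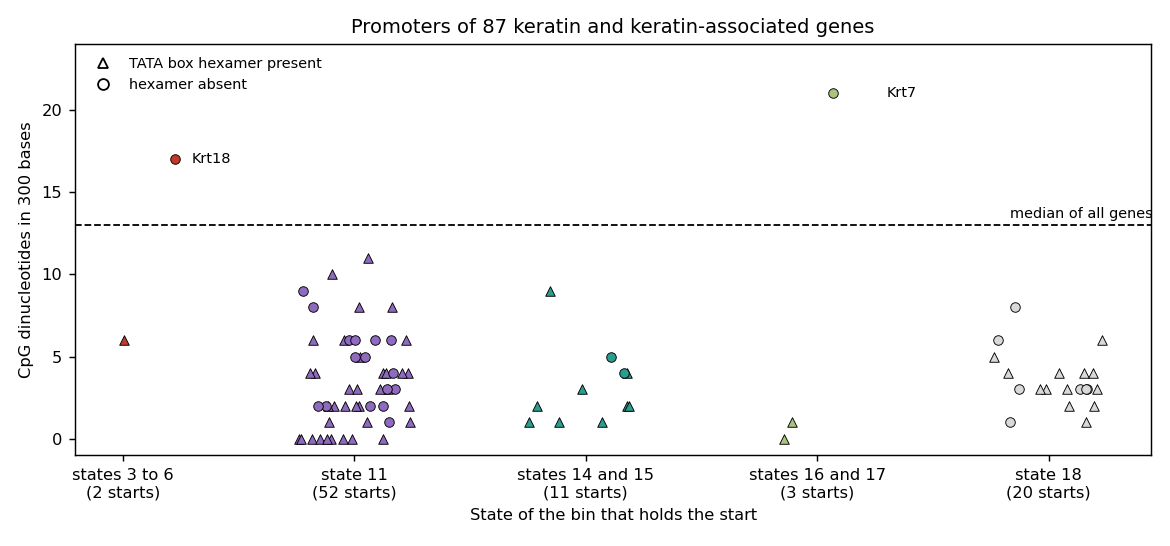
Number of CpG dinucleotides in 300 bases around the start (vertical axis) of 88 starts of 87 members, by the state of the bin that holds the start, with triangles for starts whose 300 bases hold TATAAA on either strand. Krt7 and Krt18 lie above the dashed median of 13 of all protein-coding genes, and the starts in state 11 span 0 to 11.

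Start and record agreed for most members. The start lay at the outer end of the record in 79 of the 87, and over 0.4 kb inside it in 6, Krt10, Krt36, Krt13, Krt14, Krt2 and Krt78. For Krt78, the record ran 42.3 kb past the start and ended 86 bases from that of Krt8, so much of its 54.6 kb window describes the ground between those genes. In 37 of the 87 both the start and the far end of the record lay in state 11. That count was made for the members alone, so no share of all genes stands beside it.

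The members formed 6 groups when neighbours up to 500 kb apart were joined. Chromosome 11 held 50 genes in 1041 kb, 27 type I keratins with 23 keratin-associated genes between them. Chromosome 15 held 26 genes in 687.7 kb, the 25 type II keratins and Krt18, the type I keratin outside the chromosome 11 cluster. Keratin-associated genes made up the rest, with 24 on chromosome 16 in 964.5 kb, 5 on chromosome 7 in 134.0 kb, 3 on chromosome 10 in 120.7 kb and Krtap28-13 alone on chromosome 1. The clusters differed widely in state.

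State 11 covered 78.2% of the chromosome 11 cluster, 42.9% of the chromosome 15 cluster, 14% of the chromosome 16 cluster, 22.5% on chromosome 7, 23.5% on chromosome 10 and 0% of the Krtap28-13 window. State 18 covered 18.3% of the chromosome 11 cluster, 37.8% on chromosome 15, 65.3% on chromosome 16, 66.3% on chromosome 7, 72.5% on chromosome 10 and 34.5% of the Krtap28-13 window. State 18 was thus the larger state on chromosomes 16, 7 and 10 and state 11 on chromosomes 11 and 15. States 14 and 15 covered 19% of the chromosome 16 cluster, 7.31% on chromosome 7, 3.65% on chromosome 10, 1.82% on chromosome 11 and 0.756% on chromosome 15.

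**Figure D3:**
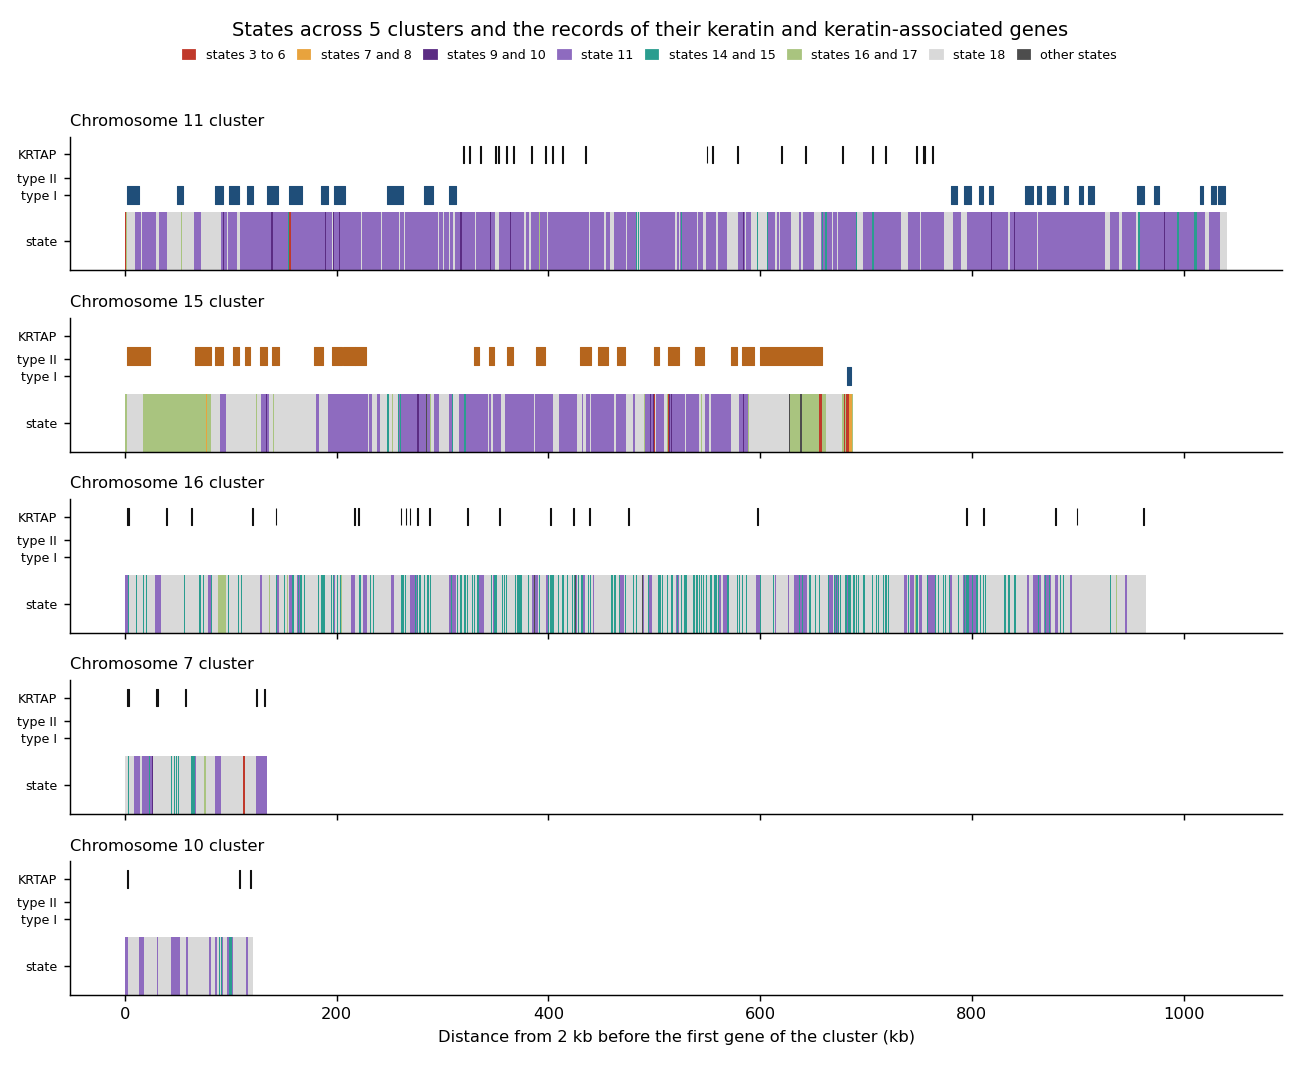
State along 5 clusters, in kb from 2 kb before the first gene, with the records of type I keratins, type II keratins and keratin-associated genes (KRTAP) drawn above the state strip. State 11 fills most of the chromosome 11 strip and the middle of the chromosome 15 strip, while the chromosome 16 strip alternates between state 18 and short segments of states 11, 14 and 15.

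On chromosome 11, states 9 to 11 occurred in 49 of 50 windows, Krt24 being the exception. State 11 was the largest state in 44, with a median share of 90.7%, and 19 windows were wholly state 11. Its longest run of states 9 to 11 was a segment of state 11 of 63.2 kb (chr11:100093401-100156600) holding the whole records of Krt36, Krt13, Krt15 and Krt19. The map had 111178 segments of state 11 with a median of 2.4 kb, and 14 of them, 0.0126%, were at least that long. Keratin-associated genes and keratins of the cluster lay in the same state: the median share of state 11 was 96.0% in the 23 keratin-associated genes and 88.3% in the 27 type I keratins.

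The nearest genes beyond the chromosome 11 cluster held no state from 9 to 11. Smarce1, a subunit of the BAF remodelling complex, ends 1.74 kb before Krt222 and had 55.4% of its window in state 8 and 10.0% in states 3 to 6. Eif1, a translation initiation factor gene and the next one after Krt42, had 58.5% of its window in states 3 to 6. Krt222 and Krt42, the outermost members, had 35.1% and 39.0% in state 11 and 55.5% and 61.0% in state 18.

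Chromosome 15 fell into 3 stretches, which were set after its states were seen. The first 8 genes, Krt80 to Krt84, had 7.64% of their stretch in state 11, with 55.8% in state 18 and 28.5% in state 17. The next 12, Krt82 to Krt77, had 70.5% in state 11 and 24.5% in state 18, with a run of states 9 to 11 of 37.8 kb (chr15:101538201-101576000) across Krt82, Krt90 and Krt75. The last 6, Krt76 to Krt18, had 23.4% in state 11 and 45.8% in state 18, while state 17 covered 17.3% and states 3 to 6 covered 5.14%. Beyond the edges, Smim41, 50.9 kb before Krt80, had 77.8% of its window in state 17, and Eif4b, a translation initiation factor 41.7 kb after Krt18, had 43.1% in state 8 and 10.2% in states 3 to 6. Both had none in states 9 to 11.

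**Figure D4:**
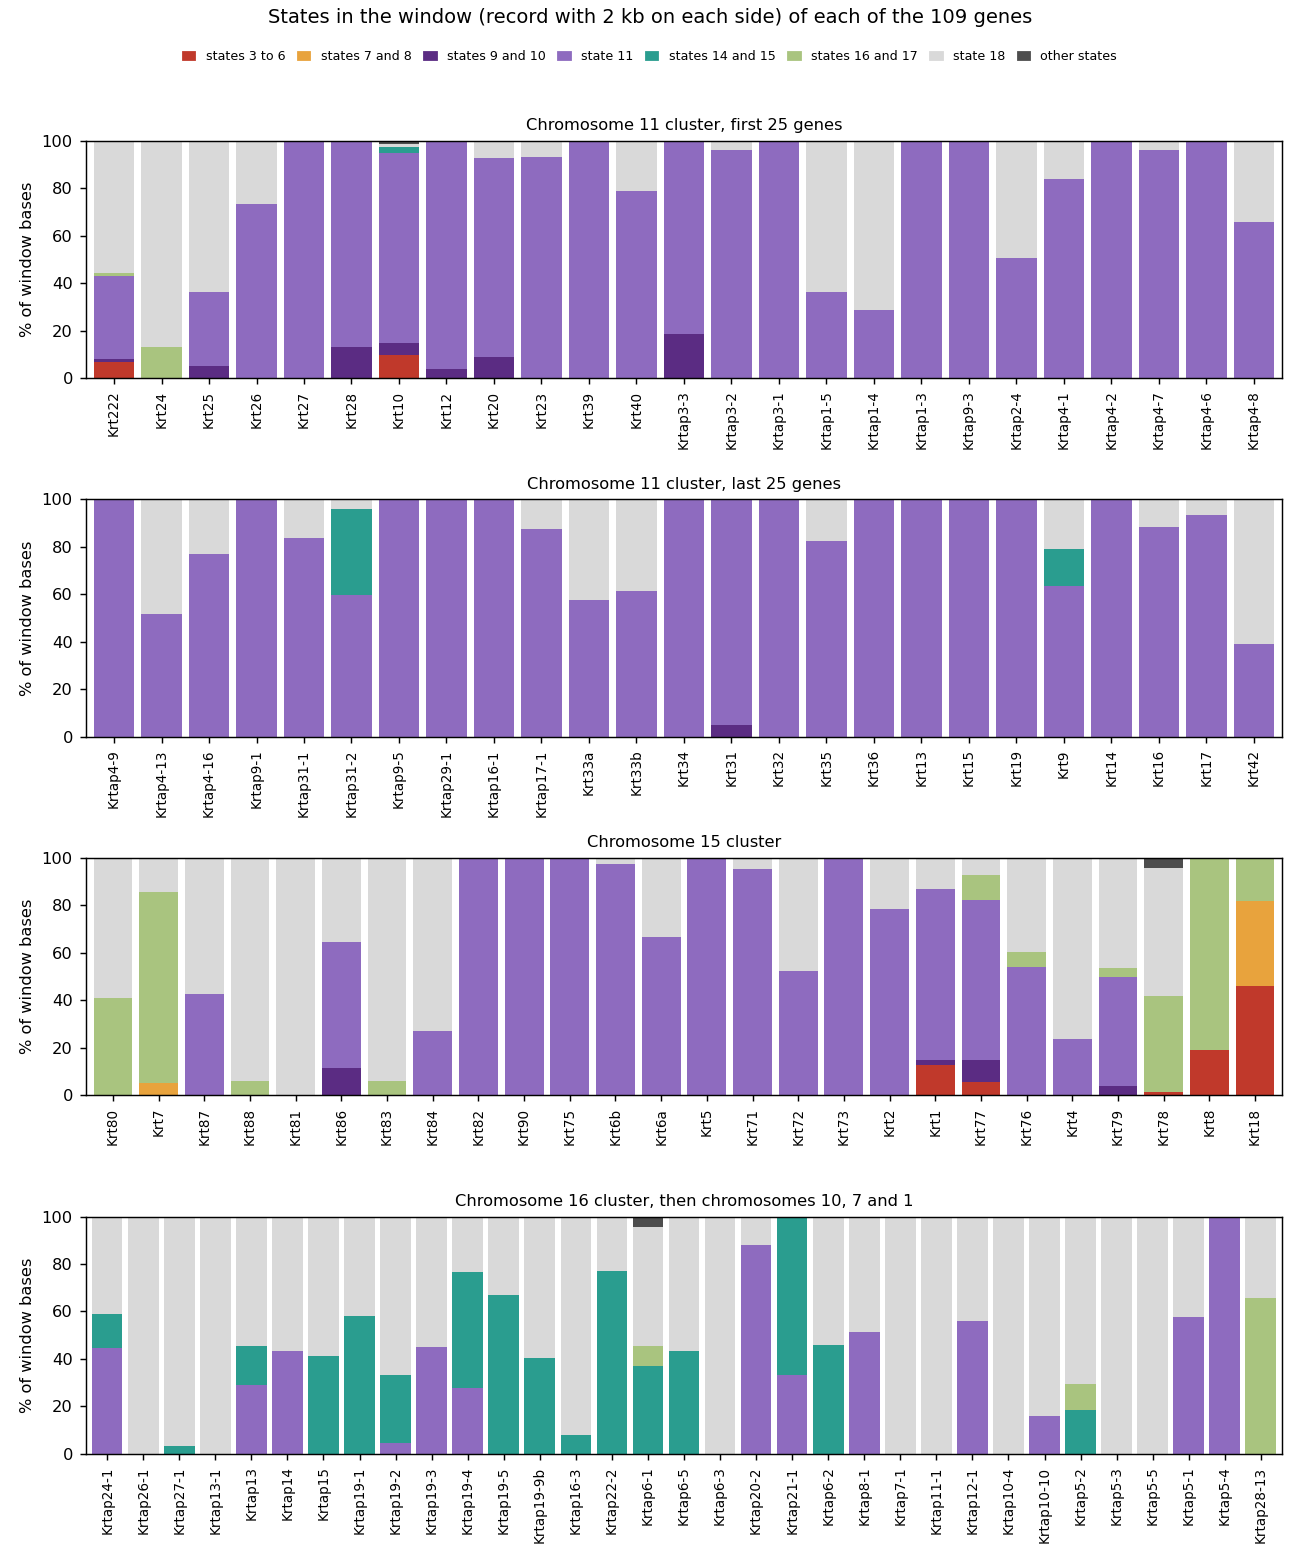
Percent of window bases (vertical axis) in each class of state for each of the 109 genes, in genomic order within clusters. States 3 to 6 appear in 7 genes, and Krt18 has the largest share of them, 45.9%.

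The simple epithelial keratins are made in single-layered epithelia such as gut, liver and ducts, and their shares of state 11 ran from 0% to 100%. Krt18 and Krt8 form the pair that appears first in the embryo, and they lie 23.9 kb apart at the end of the chromosome 15 cluster. Krt18 (chr15:102028216-102032026) had 45.9% of its window in states 3 to 6, 25.6% in state 8 and 10.2% in state 7. A run of states 3 to 6 of 3.2 kb lay across its start, a further run of 1.6 kb ended 1.62 kb upstream, and none of its window was in states 9 to 11. Krt8 (chr15:101996711-102004342) had 18.9% of its window in states 3 to 6, as a run of 2.2 kb at its start, and the other 81.1% in state 17. Its far end was thus in state 17, while Krt18 had state 7 at its far end.

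The other 4 simple epithelial keratins had no bin of states 3 to 6. Krt7, of ducts and bladder, had 72.2% of its window in state 17 and 5.15% in state 8, with its CpG-rich start in state 17. Krt19, the small keratin of ducts, was wholly state 11. Krt20, of intestine and urothelium, had 83.9% in state 11 and 8.72% in state 10. Krt23 had 93.1% in state 11.

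The basal and stratified keratins, the filaments of skin, mouth and cornea, lay mainly in state 11, which was the largest state in 9 of 10 with a median share of 88.3%. Krt5 and Krt14, the basal layer pair, were wholly state 11 although they lie on different chromosomes, and Krt15 of the basal layer and hair bulge was so too. Krt13, of the mouth and oesophagus, was wholly state 11, while its partner Krt4 had 23.5% in state 11 and 76.5% in state 18. Krt12 of the cornea had 96.3% in state 11 and 3.66% in state 10. Krt2 of the upper epidermis had 78.3%, and Krt76 of the palate 53.9%.

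Krt1 and Krt10, the pair of the suprabasal epidermis, each held both kinds of state. Krt10 (chr11:99385254-99397449) had 80.2% of its window in state 11 and 9.88% in states 3 to 6, as a run of 1.6 kb that lay 2.36 kb from the start, inside the record. That run lay near the lower coordinate of the record, next to a bin of state 1, and the start was in state 11. Krt1 (chr15:101845426-101850786) had 72.2% in state 11 and 12.8% in state 6, in 1 run of 1.2 kb beside the lower coordinate of its record, where a bin of state 9 lay.

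The stress keratins Krt6a, Krt6b, Krt16 and Krt17, which appear in wounded or hyperproliferating epidermis, were alike. State 11 covered 66.6%, 97.6%, 88.3% and 93.4% of their windows, and state 18 covered the rest. None of the 4 held states 3 to 6. Krt6a and Krt6b are close copies, so the state of each on its own is uncertain.

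Inner root sheath keratins, which line the growing hair, had states 9 to 11 in 7 of 7 windows. Krt27 and Krt73 were wholly state 11, and Krt71 had 95.4% in that state, Krt28 87.0%, Krt26 73.3% and Krt72 52.4%. Krt25 was lowest with 31.1% in state 11 and 63.7% in state 18. Krt28 also had 13% in state 10, as a run of 1.8 kb inside the record.

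Hair shaft keratins, which are linked by disulfide bonds in cortex and cuticle, ranged from wholly state 11 to wholly state 18. On chromosome 11, Krt31, Krt32, Krt34, Krt36 and Krt39 had 94.9% to 100.0% of the window in state 11, and Krt33a, Krt33b, Krt35 and Krt40 had 57.8% to 82.6%. On chromosome 15, Krt82 was wholly state 11, Krt86 had 53.3% and Krt84 27.1%. Krt81 was wholly state 18 and Krt83 had 94.2% in it. The 9 of chromosome 11 thus each had most of the window in state 11, and of the 5 on chromosome 15, Krt82 and Krt86 did. Krt81, Krt83 and Krt86 are close copies of each other, so the state of each on its own is uncertain.

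Other keratins had a lower median share of state 11, 39.0% over 9 genes. Krt75, of the companion layer of the hair follicle, was wholly state 11. Krt77 had 67.5%, with a 0.8 kb run of states 5 and 6 that lay 9.51 kb from its start, and Krt9, of palm and sole, had 63.7%, with 11.5% in state 15 and 3.82% in state 14. Krt79 of the hair follicle had 45.8%, Krt42 39.0% and Krt222 35.1%. The states 3 to 6 in the window of Krt222 came from a run of 1.2 kb that overlaps the record of Smarce1. Krt24 and Krt80 had none in state 11 and 87.1% and 58.8% in state 18. Krt78 had 54.2% in state 18, 37.0% in state 17 and a 0.8 kb run of states 3 and 5 lying 22.5 kb from its start. Outside these lists, Krt90 was wholly state 11, Krt87 had 42.5% in state 11 and Krt88 had 94.1% in state 18.

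The states of keratin-associated genes differed between clusters. On chromosome 11, 21 of 23 had state 11 as the largest state, and Krtap1-3, Krtap3-1, Krtap4-2, Krtap4-6, Krtap4-9, Krtap9-1, Krtap9-3, Krtap9-5, Krtap16-1 and Krtap29-1 were wholly in it. Krtap3-2 and Krtap4-7 had 96.0% each, Krtap17-1 87.4%, Krtap4-1 84.0%, Krtap31-1 83.9%, Krtap3-3 81.6%, Krtap4-16 76.9%, Krtap4-8 65.7%, Krtap31-2 59.5%, Krtap4-13 51.8% and Krtap2-4 50.6%. The 2 with more state 18 than state 11 were neighbours, Krtap1-5 with 63.8% and Krtap1-4 with 71.2% in state 18.

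On chromosome 16, where genes for proteins rich in glycine and tyrosine lie, state 18 was the largest state in 16 of 24 (66.7%). It was the largest in 32.4% of all protein-coding genes and in 50.8% of genes with records of at most 2 kb. State 11 was largest in 3 of the 24 (12.5%), against 23.9% of those short genes. The 3 were Krtap20-2 (88.1%), Krtap8-1 (51.4%) and Krtap24-1 (44.7%). State 14 or 15 occurred in 15 of the 24, and over all members in 19 of 109 (17.4%), against 22.4% of all protein-coding genes. By length, 17 of the 56 keratin-associated genes (30.4%) held it, against 26.8% of genes with records of at most 2 kb, and 2 of the 53 keratins (3.77%), against 13.6% of the longer genes. It was largest in Krtap22-2 (53.9% state 15), Krtap19-5 (66.9% state 15), Krtap19-4 (34.6% state 15), Krtap19-1 (49.2% state 14) and Krtap21-1 (54.2% state 14). Krtap13, Krtap14, Krtap19-2 and Krtap19-3 had 4.34% to 45.0% in state 11. Krtap15, Krtap16-3, Krtap19-9b, Krtap27-1, Krtap6-1, Krtap6-2 and Krtap6-5 had 3.31% to 45.9% in state 15, and Krtap6-1 also held a bin of state 2 and 8.71% in state 16. Krtap26-1, Krtap13-1, Krtap6-3, Krtap7-1 and Krtap11-1, the last gene of the cluster, were wholly state 18.

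The gene nearest before this cluster, Cldn8, a tight junction claudin 47.5 kb from Krtap24-1, had 74.8% of its window in state 18. Tiam1, a Rac exchange factor 216.0 kb after Krtap11-1, had 59.0% in state 17 and 1.49% in states 3 to 6.

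Smaller groups were mixed. On chromosome 7, Krtap5-4 was wholly state 11 and Krtap5-1 57.5% state 11, while Krtap5-3 and Krtap5-5 were wholly state 18 and Krtap5-2 had 70.8% in state 18, 18.3% in state 15 and 11% in state 16. A run of states 3 to 6 of 1.8 kb in this cluster lay 0.138 kb from the start of the noncoding gene B130016D09Rik and in no member's window. On chromosome 10, Krtap12-1 had 56.0% in state 11, Krtap10-10 16.1% and Krtap10-4 none. Krtap28-13 had 45.5% of its window in state 17, while 34.5% was state 18 and 20.0% was state 16. The next genes outward were Gm4553 and Ifitm10 on chromosome 7, Gm10142 and Gm36176 on chromosome 10, and Slc19a3 and Ccl20 on chromosome 1, and state 18 was the largest state in each, with 62.3% to 100.0% of the window.

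Copies of one another share sequence in this family, so the 300 bases of the promoter entries were compared in runs of 20 bases. A run shared with another member occurred in 17 of 51 keratin-associated promoters and in none of 36 keratin promoters. Promoters of other genes were not compared, so these counts have no background share. Krt6a, Krt6b, Krt16, Krt17, Krt33a, Krt81, Krt83 and Krt86 had no entry, so these keratins were not among the promoters compared. The neighbours Krt33b, Krt34 and Krt31 were compared and shared no run with another member. The highest share was 42.3% of the runs, between Krtap31-1 and Krtap31-2. How reads from such copies were placed is not stated, and its part in these calls was not tested.

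States 9 and 10 lay in short runs. They occurred in 12 of 109 windows, against 20.6% of all protein-coding genes, and covered 1.04% of the members' window bases and 0.858% of those of all protein-coding genes. By length, they occurred in 11 of the 53 keratins (20.8%), against 16.7% of genes with records over 2 kb and up to the longest member, and in 1 of the 56 keratin-associated genes (1.79%), against 5.48% of genes with records of at most 2 kb. On chromosome 11 they formed 19 runs of 0.2 to 1.8 kb, 12.0 kb in all, with 0 runs at a start and 2 within 1 kb of one. On chromosome 15 they formed 10 runs, 6.2 kb in all, with 0 at a start.

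Genes that work beside keratins were described from lists, by the same windows. Of 16 other intermediate filament genes, 8 held states 3 to 6, 12 held states 9 to 11 and 5 had state 11 as the largest state. Vim, the filament protein of mesenchymal and blood cells, had 33.6% of its window in states 3 to 6 and 35.2% in state 8. The lamin genes Lmna, Lmnb1 and Lmnb2 had 14%, 7.71% and 21.1% in states 3 to 6. Gfap, Bfsp1 and Bfsp2 had 7.21%, 3.24% and 0.336% in states 3 to 6. Des, the muscle filament desmin, was wholly state 11. The neuronal filament genes Nefl, Nefm and Ina had 76.2%, 68.2% and 82.7% in that state. Nefh, also neuronal, had 55.6% of its window in state 8, 6.01% in states 3 to 6 and 15.0% in states 9 to 11.

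Cornified envelope genes, which build the outer shell of the dead epidermal cell, held states 3 to 6 in 1 of 44, Lor, while 24 held states 9 to 11, 13 had state 11 as the largest state and 13 were wholly state 18. Among 18 desmosome and plakin genes, 4 held states 3 to 6 and 14 (77.8%) held states 9 to 11. State 11 was the largest state in 1 of the 18, Cdsn. Among 9 hemidesmosome genes, 6 held states 3 to 6, 3 held states 9 to 11 and none had state 11 as the largest state. Of 13 crosslinking and processing genes, 3 held states 3 to 6 and 8 (61.5%) held states 9 to 11. State 11 was largest in 2 of the 13, Tgm3 and Klk5. Among 10 epithelial markers other than keratins, 2 held states 3 to 6, Sfn and Itgb4, and 4 held states 9 to 11. None of the 10 had state 11 largest. Among all protein-coding genes, 58.3% held states 3 to 6 and 39.2% held states 9 to 11. State 11 was largest in 10.9% of them, and 5.94% were wholly state 18. Median records ran from 1.7 kb in cornified envelope genes to 60.4 kb in hemidesmosome genes, so these counts are not matched for length.

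The 20 transcription factors of epidermis and hair had a larger share of states 9 and 10 than the keratins, in a comparison not matched for length. States 9 to 11 occurred in 16 (80.0%), against 39.2% of all protein-coding genes, and states 3 to 6 in 7 (35.0%), against 58.3%. States 9 and 10 covered 5.85% of their window bases, against 1.04% in the keratin and keratin-associated genes and 1.33% in the keratins alone. The share was 4.02% in the other intermediate filament genes, so a larger share was not particular to the transcription factors. The median record was 22.0 kb in the transcription factors and 7.07 kb in the keratins. Dlx3, Hoxc13, Msx1, Msx2, Tfap2a and Tfap2c had windows wholly in states 9 to 11, and state 11 was the largest state in each. Hoxc13 is a direct regulator of hair keratin genes, and 79.5% of its window was state 11.

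**Figure D5:**
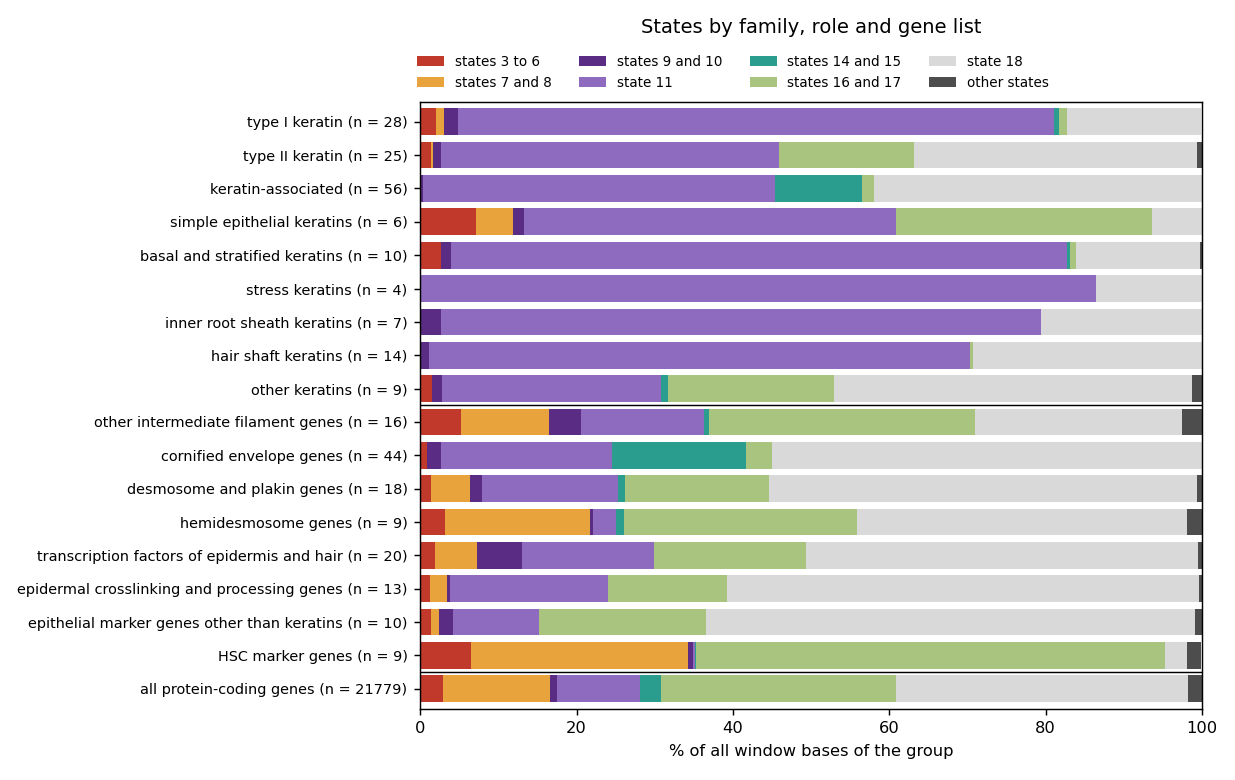
Percent of all window bases in each class of state (horizontal axis) for keratin families and roles (top), other gene lists (middle) and all 21779 protein-coding genes (bottom). Stress keratins had 86.4% of bases in state 11, and all protein-coding genes 10.7%.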

How the data were processed

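Per the labels' protocols, H3.3 ChIP and input libraries were made from sorted HSCs. The build mm10 and the tools Bowtie2, MACS2, HOMER and deepTools appear in the submitters' processing notes, with no version numbers. The authors deposited 1 segmentation in 18 states, as a dense and an expanded track, whose unit is a state number per segment of 200 bp bins. What entered the model, and its emission values, is not given in the sources used here. No counts or coverage come with it, so depth is unknown and no interval is given.

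Segments were expanded to bins and counted per gene window, by bases, in Python 3.11.15 with pandas 2.3.3 and numpy 2.4.6. Of 21900 protein-coding RefSeq genes, 13 outside the map and 108 starting in the first 3 Mb of an autosome or X were left out, leaving 21779. The counting was checked on simulated maps. Starts came from the RefSeq promoter table and were added after the files were seen. Members and gene lists were chosen with earlier results of these data known. Named genes were members holding states 1 to 13 or 16, the outermost members of each cluster with the genes beyond them, and listed keratins. Members outside that rule (Krtap5-3, Krtap5-5, Krtap6-2, Krtap6-3, Krtap6-5, Krtap7-1, Krtap10-4, Krtap13-1, Krtap15, Krtap16-3, Krtap19-1, Krtap19-5, Krtap19-9b, Krtap22-2, Krtap26-1 and Krtap27-1) were named after their values were seen. A listed HSC marker gene is not reported here. The alternatives were the record alone, 5 kb flanks, record ends, single bins left out, the expanded track and other backgrounds. All shares are descriptions of 1 map, with no test.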

Additional observations from a re-analysis of the deposited data

How the results depend on the processing

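Counts of members with states 9 to 11 in the window stayed within 1.5 times of 80 under each alternative, from 74 to 91. Members with states 3 to 6 numbered 6 to 7 except at the ends of the record, where 2 held them. At the ends of the record, the members' share over that of all genes moved to 2.84 for states 9 to 11 and 0.0385 for states 3 to 6, against 1.87 and 0.11 over the window. Windows wholly in state 18 numbered 14 for the record alone, 3 with 5 kb flanks and 18 where both ends were read, against 9 as reported. Their share over that of all protein-coding genes, 1.39, turned round with 5 kb flanks (0.733) and, in comparisons added after seeing the data, against genes of like length (0.628 for keratin-associated genes, 0.382 for keratins). State 11 covered 54.5% of window bases, 54.6% with each bin counted once and 26.5% as the median of the 6 clusters. Without the chromosome 11 cluster it covered 35.1%, and without each other cluster 54.8% to 62.3%. A gap of 100 kb gave 11 clusters and a gap of 1 Mb gave 6. The expanded track matched in 100% of bins. Starts within 1 kb of states 9 to 11 numbered 56, against 51 at the start itself. No paired analysis was possible because the map has no replicates.

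The map is 1 segmentation, so spread between animals and the effect of HIRA were not measured. Sequencing depth, read mapping at near-identical copies and the meaning of each state number were not given in the sources used here. Members are neighbours that share long segments, so 109 genes are not 109 independent readings.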
